A study of Mus musculus with 8 samples.

Results

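The genes described here encode the CD3 chains of the T-cell receptor complex, both chains of the CD8 coreceptor, and the kinases and adaptor that act directly behind them. They were taken by symbol from the deposited count tables and are *Cd3d*, *Cd3e*, *Cd3g*, *Cd247*, *Cd8a*, *Cd8b1*, *Lck*, *Zap70* and *Lat*, 9 of the 48321 gene symbols listed. Of all symbols, 34404 had a count in any library and 12597 passed the filter on low counts, and all 9 genes were among those tested. RNA was sequenced from splenic CD8+ T cells, the cytotoxic lineage, of C57BL/6 mice in 8 libraries. The labels gave the genotype as WT or KO and the time as day 0 or day 5, with 2 libraries in each of the 4 groups. The series' title and design text described in vitro stimulation and culture of such cells of *Satb1* F/F; E8I-cre mice. SATB1 is a DNA-binding protein that organises chromatin in T cells, and E8I is an enhancer of the *Cd8* locus that drives the Cre recombinase in mature cells of the CD8 lineage. Whether the WT mice carried the floxed alleles or the Cre transgene, how the cells were cultured, and whether replicate libraries came from separate mice were not stated in the labels. The p-values below therefore measure only the spread between these libraries, which may be technical.

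As background, the αβ T-cell receptor has no signalling tail of its own and depends on the CD3 γ, δ and ε chains and the ζ chain, which is the product of *Cd247*. Their cytoplasmic tails carry tyrosine motifs (ITAMs) that the Src-family kinase LCK phosphorylates. CD8α and CD8β form the coreceptor that binds MHC class I, and the tail of CD8α carries LCK to the engaged receptor. ZAP-70 then docks on the phosphorylated motifs and phosphorylates LAT, the membrane scaffold on which the downstream signalling complex assembles.

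The genes *Cd3g*, *Cd3d* and *Cd3e* are neighbours on chromosome 9 (GRCm38, GENCODE M21 gene models). *Cd3g* (44969572 to 44980431, minus strand) and *Cd3d* (44981786 to 44987339, plus strand) point away from each other across 1354 bp, and *Cd3e* (44998740 to 45009627, minus strand) starts on the far side of *Cd3d*. *Cd247* lies apart on chromosome 1 (165788681 to 165877277, plus strand). *Cd8b1* (71322788 to 71337494) and *Cd8a* (71373427 to 71379173) lie on the plus strand of chromosome 6 with 35932 bp between them. *Lck* lies on chromosome 4 (129548344 to 129573641, minus strand), *Zap70* on chromosome 1 (36761798 to 36782818, plus strand) and *Lat* on chromosome 7 (126363824 to 126369570, minus strand). The 250 bases before the RefSeq transcription start are printed for the CD3 chains, because neighbouring chains differed in their change over culture, and for *Cd8a* and *Lat*, because these were the members that differed between genotypes. The windows are chr9:44981536-44981785 (plus) for *Cd3d*, chr9:44980432-44980681 (minus) for *Cd3g*, chr9:45009612-45009861 (minus) for *Cd3e*, chr1:165788431-165788680 (plus) for *Cd247*, chr6:71373177-71373426 (plus) for *Cd8a* and chr7:126369569-126369818 (minus) for *Lat*, all in GRCm38.p6 and written 5′ to 3′ on the strand of the gene. The *Cd3e* and *Lat* windows end just inside the GENCODE gene models, whose starts lie slightly upstream of the RefSeq starts. Capitals mark matches to the motifs described after them.
Cd3d: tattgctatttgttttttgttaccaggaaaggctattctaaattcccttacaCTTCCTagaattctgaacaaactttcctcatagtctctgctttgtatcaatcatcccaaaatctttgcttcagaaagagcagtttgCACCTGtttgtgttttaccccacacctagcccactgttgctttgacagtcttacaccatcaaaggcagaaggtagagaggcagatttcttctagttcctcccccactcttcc
Cd3g: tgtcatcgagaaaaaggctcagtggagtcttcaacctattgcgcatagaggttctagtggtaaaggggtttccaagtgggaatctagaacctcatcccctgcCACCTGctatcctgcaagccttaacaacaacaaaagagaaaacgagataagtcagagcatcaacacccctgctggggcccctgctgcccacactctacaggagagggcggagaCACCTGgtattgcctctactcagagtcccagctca
Cd3e: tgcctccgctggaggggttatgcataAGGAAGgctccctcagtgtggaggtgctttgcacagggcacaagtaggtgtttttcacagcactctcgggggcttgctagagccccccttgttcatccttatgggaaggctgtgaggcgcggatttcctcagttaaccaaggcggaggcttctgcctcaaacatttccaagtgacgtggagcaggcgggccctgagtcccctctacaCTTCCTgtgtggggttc
Cd247: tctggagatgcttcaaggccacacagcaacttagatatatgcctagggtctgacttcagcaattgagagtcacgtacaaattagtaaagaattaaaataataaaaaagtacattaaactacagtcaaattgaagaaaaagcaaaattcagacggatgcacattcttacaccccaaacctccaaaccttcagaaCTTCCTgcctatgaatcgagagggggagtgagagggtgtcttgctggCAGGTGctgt
Cd8a: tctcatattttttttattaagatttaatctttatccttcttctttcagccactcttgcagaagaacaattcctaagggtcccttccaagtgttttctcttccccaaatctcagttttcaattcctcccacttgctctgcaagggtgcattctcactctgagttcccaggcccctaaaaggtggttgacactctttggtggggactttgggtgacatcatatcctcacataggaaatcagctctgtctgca
Lat: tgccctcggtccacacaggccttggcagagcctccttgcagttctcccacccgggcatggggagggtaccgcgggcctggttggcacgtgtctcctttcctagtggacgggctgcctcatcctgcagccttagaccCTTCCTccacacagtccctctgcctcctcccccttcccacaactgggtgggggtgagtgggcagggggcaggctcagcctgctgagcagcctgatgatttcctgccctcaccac

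The motifs searched were the letters AGGAAG for ETS factors, TGTGGT for RUNX factors, CAGGTG for E-box proteins and TATAAA for the TATA box, each on both strands. Of 32851 windows of the same length before RefSeq mouse starts, 29.5% held the ETS letters, 14.045% the RUNX letters, 17.2% the E-box letters and 12.4% the TATA letters. The *Cd3d* window held 1 ETS and 1 E-box match, the *Cd3g* window 2 E-box matches, and the *Cd3e* window 2 ETS matches, at 224 and 17 bases before the start. The *Cd247* window held an ETS match at 57 bases and an E-box match at 10 bases before the start, the *Lat* window held 1 ETS match, and the *Cd8a* window held no match. A match is a description of these letters and no measure of binding. Starts were found for 8 of the 9 genes, and *Cd8b1* had no entry.

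Between 4170126 and 11117971 counts per library fell on genes, and replicate 1 of the day 0 libraries labelled KO was the deepest. Levels are given as CPM, counts scaled to a common library total, after the totals were adjusted for composition by the trimmed mean of M-values (TMM). T-cell identity was visible in every library, with *Trac* between 1620 and 2854 CPM and *Cd2* between 1688 and 2785 CPM. The 20 listed markers of other cells summed to 204.1 to 240.6 CPM in WT and 249.2 to 280.2 CPM in KO libraries at day 0, and to 139 to 166.5 CPM in WT and 166.6 to 193.5 CPM in KO libraries at day 5. Most of that sum was *Cd79b* (66.7 to 163.9 CPM), *Trdc* (21.4 to 81.9 CPM) and *Cd68* (2.23 to 68.4 CPM), whereas *Cd4* and *Ms4a1* stayed under 1 CPM in each library. Of these 20 markers, 1 was at 0 in both WT libraries at day 0, 0 in both KO libraries at day 0, 4 in both WT libraries at day 5 and 5 in both KO libraries at day 5. The part of other cells in the results below was not tested.

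The targeted gene, *Satb1*, was measured at 97.8 and 91.6 CPM in the WT and at 144.1 and 124.8 CPM in the KO libraries at day 0. At day 5 it was at 96.5 and 115.9 CPM in WT and at 56.5 and 62.3 CPM in KO libraries. *Satb1* RNA was thus lower in the KO libraries only at day 5 (log2 fold change −0.84, SE 0.15, adjusted p = 0.0162), and the day 0 libraries labelled KO had more of it than those labelled WT (log2 fold change 0.51, SE 0.15, adjusted p = 0.125, edgeR quasi-likelihood test, Benjamini-Hochberg adjusted). The day 5 call was lost without WT replicate 2 or either KO replicate of day 5 (adjusted p = 0.0848, 0.174 and 0.156). Counts covered the whole gene, and which exons are removed was not stated in the labels. Every direction given for KO at day 0 rests on that label, as do the genotype to which each change over culture is assigned and the interaction.

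Except for *Zap70*, the RNA of these genes was abundant at day 0, with ranks of mean CPM from 13 to 168 among the 12597 tested genes. *Zap70* ranked 1767 in WT and 2721 in KO libraries. Compared per kilobase of exon, mean levels in WT libraries at day 0 ran from *Cd8b1* (2603 ± 188 CPM per kb, SD, n = 2) through *Lck* (1288 ± 34.9), *Cd3d* (854 ± 63.0), *Cd3g* (716 ± 58.8), *Lat* (600.2 ± 57.2), *Cd8a* (393 ± 9.80), *Cd3e* (261 ± 0.562) and *Cd247* (149 ± 0.562) to *Zap70* (39.4 ± 1.66). Libraries of neighbouring genes in this order did not overlap, and the day 0 KO libraries gave the same order, from 2287 ± 24.5 CPM per kb for *Cd8b1* to 24.5 ± 6.85 CPM per kb for *Zap70*. In WT libraries at day 5 *Lck* (923 ± 81.3 CPM per kb), *Cd3d* (868 ± 14.6) and *Cd8b1* (835 ± 38.2) led, and *Lck* overlapped *Cd3d*, as *Cd3d* overlapped *Cd8b1*. In KO libraries at day 5 the order was *Lck* (1069 ± 39.8 CPM per kb), *Cd8b1* (891 ± 44.6) and *Cd3d* (806 ± 0.892), without overlap. The remaining members kept the order *Cd3g*, *Lat*, *Cd8a*, *Cd3e*, *Cd247* and *Zap70* in all 4 groups. Exon length was that of all annotated exons of a gene merged, which may exceed the transcripts present, so this order is approximate. The place of *Cd247* is also uncertain, since exons of *Pou2f1* on the opposite strand cover 56.4% of its exon length. The counts of the 9 genes together made up 1.57% to 1.77% of all gene counts in the day 0 libraries and 0.99965% to 1.09% in the day 5 libraries.

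**Figure D1:**
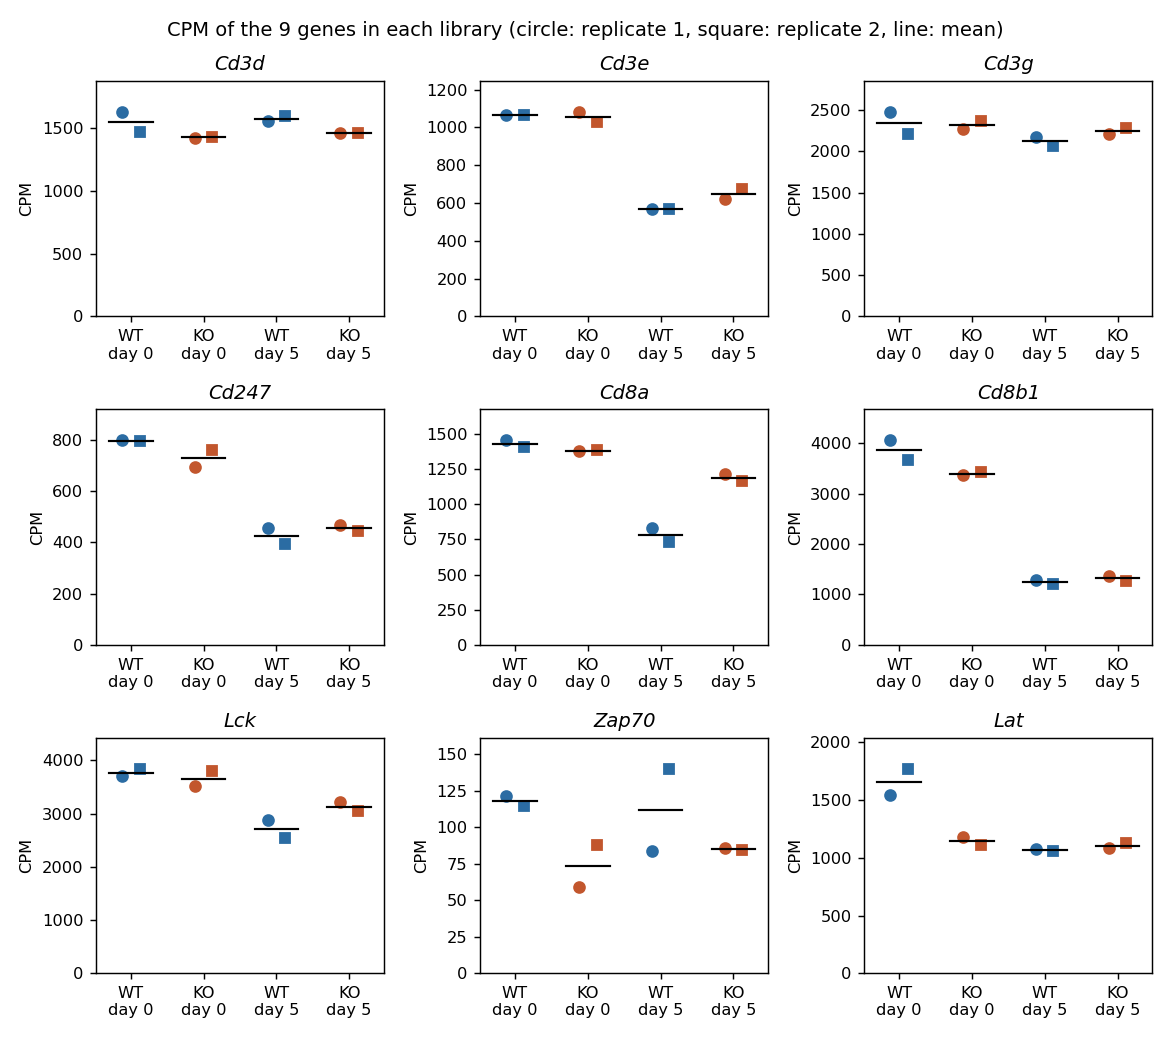
CPM (y axis, TMM-scaled, from 0) of each of the 9 genes in the 2 libraries of each group (x axis). Circles are replicate 1, squares replicate 2 and lines the group means. *Cd8b1* falls from between 3367 and 4057 CPM at day 0 to between 1199 and 1368 CPM at day 5, whereas the levels of *Cd3d* and *Cd3g* overlap between the days when both genotypes are pooled.

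Over the 5 days, *Cd8b1*, *Cd3e* and *Cd247* were called lower in both genotypes, and *Cd8a*, *Lck* and *Lat* in WT cells. A call in WT cells only does not show a difference between genotypes, which was tested separately below. In WT cells 6 of the 9 genes were called at an adjusted p under 0.05, all 6 lower at day 5, against 48.3% of all tested genes called in either direction, 24.7% higher and 23.6% lower. In KO cells 3 of the 9 genes were called, all 3 lower, against 50.2% called in either direction, 26.2% higher and 24.0% lower. The count of 3 in KO cells was 6 with scaling by library totals, 5 with an offset for GC content and length and 5 without WT replicate 2 of day 5. The median log2 fold change of the 9 genes was −0.64 in WT and −0.21 in KO cells, beside −0.04 and −0.05 over all tested genes. In 5 of the 9 genes (*Cd3e*, *Cd247*, *Cd8a*, *Cd8b1* and *Lck*) each day 5 library lay below each day 0 library, which held for 25.8% of all tested genes. In 0 of the 9 genes did each day 5 library lie above each day 0 library, which held for 27.2% of all tested genes. CPM are shares of a library, so a lower CPM need not mean fewer transcripts of the gene per cell. In bulk RNA, fewer cells of a type, less RNA of the gene per cell and more RNA of other genes cannot be told apart.

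*Cd8b1*, which encodes the β chain that pairs with CD8α in conventional cytotoxic T cells, had the largest fall of the 9 genes in both genotypes. It was measured at 4057 and 3663 CPM in WT and at 3367 and 3418 CPM in KO libraries at day 0. At day 5 it was at 1279 and 1199 CPM in WT and at 1368 and 1274 CPM in KO libraries, so that the days were far apart and the genotypes at day 5 overlapped. The fall was 3.12-fold in WT cells (log2 fold change −1.64, SE 0.11, adjusted p = 7.83e-08) and 2.57-fold in KO cells (log2 fold change −1.36, SE 0.10, adjusted p = 3.69e-07, edgeR quasi-likelihood test, Benjamini-Hochberg adjusted). The difference between genotypes in this fall was 0.28 on the log2 scale (95% interval −0.04 to 0.59, adjusted p = 0.462).

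*Cd8a*, which encodes the chain that binds LCK, was at 1455 and 1405 CPM in WT and 1377 and 1386 CPM in KO libraries at day 0. At day 5 it was at 832 and 734 CPM in WT libraries and at 1216 and 1164 CPM in KO libraries, both above both WT values. In WT cells *Cd8a* fell 1.83-fold over culture (log2 fold change −0.87, SE 0.11, adjusted p = 2.98e-05). In KO cells its log2 fold change was −0.21 (95% interval −0.45 to 0.02, adjusted p = 0.112), and this did pass the threshold with scaling by library totals (−0.40, adjusted p = 0.00281), with an offset for GC content and length (−0.31, adjusted p = 0.0243), and without WT replicate 2 of day 5 (−0.21, adjusted p = 0.0468).

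The 2 coreceptor genes therefore changed in unequal proportion. Within a library the ratio of *Cd8a* to *Cd8b1* counts needs no scaling between libraries. It was 0.359 and 0.384 in WT and 0.409 and 0.405 in KO libraries at day 0. It was 0.651 and 0.612 in WT and 0.889 and 0.914 in KO libraries at day 5. The 4 groups did not overlap, with log2 ratios of −1.43 ± 0.07 (WT, day 0), −1.30 ± 0.01 (KO, day 0), −0.66 ± 0.06 (WT, day 5) and −0.15 ± 0.03 (KO, day 5, SD, n = 2 each). The ratio is described here and was not tested. Among cells that can carry CD8α without CD8β, the dendritic cell markers *Zbtb46*, *Xcr1* and *Siglech* were at 3.35 to 6.99, 0.241 to 1.59 and 0 to 0.353 CPM in the day 5 libraries, and *Trdc*, of γδ T cells, was at 27.3 and 45.3 CPM in WT and 29.4 and 21.4 CPM in KO libraries at day 5.

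**Figure D2:**
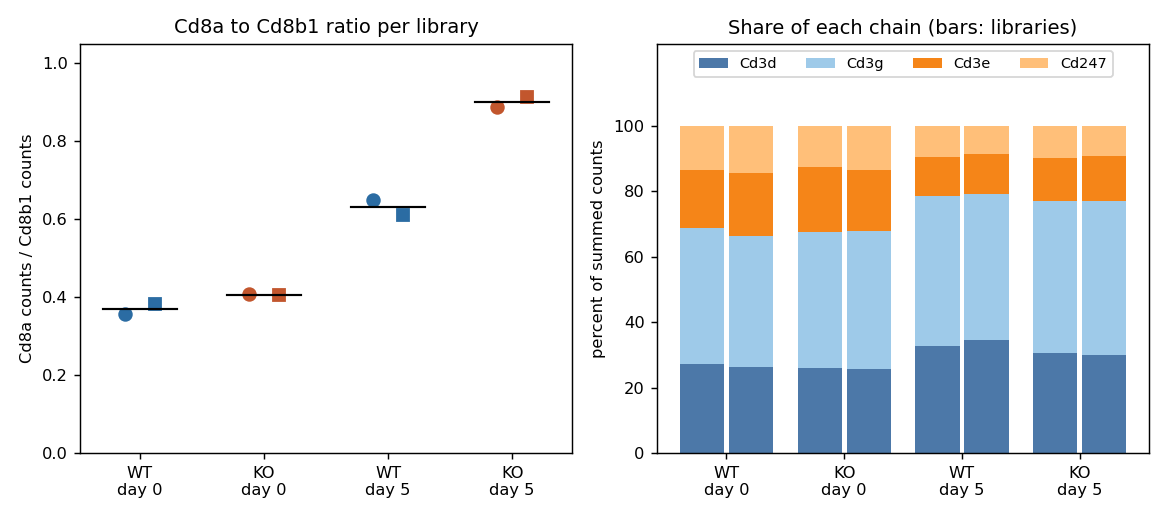
Left, the ratio of *Cd8a* to *Cd8b1* counts (y axis, from 0) in each library by group (x axis), with circles for replicate 1, squares for replicate 2 and lines for the means. Right, stacked bars with the percent of the summed *Cd3d*, *Cd3e*, *Cd3g* and *Cd247* counts taken by each gene, with 1 bar per library. The ratio is lowest in WT libraries at day 0 (0.359 and 0.384) and highest in KO libraries at day 5 (0.889 and 0.914), and the *Cd3e* and *Cd247* segments are narrower at day 5.

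Among the CD3 genes, *Cd3e* and *Cd247* fell over culture, and the neighbours *Cd3d* and *Cd3g* were not called. *Cd3e*, whose product pairs with both CD3γ and CD3δ, was at 1064 and 1067 CPM in WT and 1083 and 1026 CPM in KO libraries at day 0. At day 5 it was at 568 and 569 CPM in WT and 621 and 676 CPM in KO libraries. It was thus lower in each day 5 library, 1.87-fold in WT cells (log2 fold change −0.91, SE 0.11, adjusted p = 1.93e-05) and 1.63-fold in KO cells (log2 fold change −0.70, SE 0.11, adjusted p = 0.000143).

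*Cd247*, of the ζ chain that carries most of the complex's ITAMs, was at 798 and 794 CPM in WT and 695 and 758 CPM in KO libraries at day 0, and at 456 and 394 CPM in WT and 467 and 446 CPM in KO libraries at day 5. The days did not overlap, and the fall was 1.87-fold in WT cells (log2 fold change −0.90, SE 0.12, adjusted p = 4.11e-05) and 1.59-fold in KO cells (log2 fold change −0.67, SE 0.12, adjusted p = 0.000407). The exons of *Pou2f1* on the opposite strand cover 56.4% of the annotated exon length of *Cd247*, and the strand setting of the counting was not given in the sources used here, so the *Cd247* values are uncertain to that extent.

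*Cd3d*, of the δ chain, was at 1630.05 and 1468 CPM in WT and 1424 and 1431 CPM in KO libraries at day 0, and at 1556 and 1594 CPM in WT and 1464 and 1461 CPM in KO libraries at day 5. Its log2 fold change over culture was 0.02 in WT cells (95% interval −0.20 to 0.25) and 0.04 in KO cells (95% interval −0.19 to 0.26), and both became negative when libraries were scaled by their totals (−0.11 and −0.15) or with the offset for GC content and length (−0.19 and −0.22). *Cd3g*, of the γ chain, was at 2477 and 2206 CPM in WT and 2271 and 2368 CPM in KO libraries at day 0, and at 2175 and 2065 CPM in WT and 2203 and 2282 CPM in KO libraries at day 5. The WT libraries of the 2 days did not overlap for *Cd3g*, but the log2 fold change of −0.14 (95% interval −0.37 to 0.08, adjusted p = 0.273) was not called, nor was that of −0.05 in KO cells (95% interval −0.27 to 0.17). With library totals *Cd3g* was called lower in WT (−0.28, adjusted p = 0.0243) and in KO cells (−0.23, adjusted p = 0.0499), and with the offset in WT only (−0.38, adjusted p = 0.0105).

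Within the summed counts of the 4 CD3 genes, the share of *Cd3e* was 18.5% ± 1.03 in WT and 19.1% ± 0.993 in KO libraries at day 0 and 12.1% ± 0.259 and 13.5% ± 0.589 at day 5 (SD, n = 2 each). The share of *Cd247* went from 13.9% ± 0.688 and 13.1% ± 0.619 to 9.06% ± 0.757 and 9.49% ± 0.471. The shares of *Cd3d* (26.9% ± 0.550 and 25.8% ± 0.271 at day 0, 33.6% ± 1.25 and 30.4% ± 0.528 at day 5) and *Cd3g* (40.7% ± 1.17 and 42.0% ± 0.645 at day 0, 45.2% ± 0.747 and 46.6% ± 0.410 at day 5) were larger at day 5 in both genotypes. Shares of counts also depend on exon length, so only the change of a gene between libraries is described by them. The count ratio of *Cd3d* to *Cd3e* was 1.45 ± 0.11 in WT and 1.35 ± 0.0564 in KO libraries at day 0, and 2.77 ± 0.0435 in WT and 2.26 ± 0.138 in KO libraries at day 5.

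Of the kinases and the adaptor, *Lck* and *Lat* were called lower in WT cells. *Lck* was at 3701 and 3846 CPM in WT and 3513 and 3802 CPM in KO libraries at day 0, and at 2873 and 2536 CPM in WT and 3213 and 3049 CPM in KO libraries at day 5. Every day 5 library was below every day 0 library. The fall in WT cells was 1.40-fold (log2 fold change −0.48, SE 0.10, adjusted p = 0.00212). The difference between genotypes in the change of *Lck* was 0.26 on the log2 scale (95% interval −0.06 to 0.57, adjusted p = 0.508, edgeR quasi-likelihood test). The log2 fold change in KO cells was −0.22 (95% interval −0.45 to 0.00042, adjusted p = 0.089) and passed the threshold with library totals (−0.41, adjusted p = 0.00187), with the offset (−0.49, adjusted p = 0.00146), with only the 4 libraries compared (−0.23, adjusted p = 0.0472) and without WT replicate 1 or 2 of day 5 (adjusted p = 0.0427 and 0.0266).

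*Lat* was at 1549 and 1773 CPM in the WT libraries at day 0, and at 1177 and 1113 CPM in the KO libraries at day 0, at 1073 and 1059 CPM in WT and at 1084 and 1127 CPM in KO libraries at day 5. The 2 WT libraries of day 0 stood above the other 6. In WT cells *Lat* fell 1.56-fold over culture (log2 fold change −0.64, SE 0.11, adjusted p = 0.000383), and in KO cells the log2 fold change was −0.05 (95% interval −0.29 to 0.18, adjusted p = 0.721). Which genotype *Lat* fell in therefore rests on the day 0 labels, since the day 5 means of 1066 ± 9.93 CPM in WT and 1106 ± 30.5 CPM in KO libraries (SD, n = 2 each) were both near the day 0 mean of the libraries labelled KO, 1145 ± 45.2 CPM.

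*Zap70* had the lowest level of the 9 genes in each group, and the largest standard errors of its fitted log2 fold changes. It was at 121 and 114 CPM in WT and 58.9 and 87.9 CPM in KO libraries at day 0, and at 83.6 and 140.005 CPM in WT and 85.7 and 84.1 CPM in KO libraries at day 5. The KO libraries at day 0 lay below the WT libraries, and the day 5 WT libraries spanned those of KO. Its log2 fold change over culture was −0.08 in WT (95% interval −0.58 to 0.41) and 0.22 in KO cells (95% interval −0.28 to 0.72), and the WT interval held the −0.48 measured for *Lck*.

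**Figure D3:**
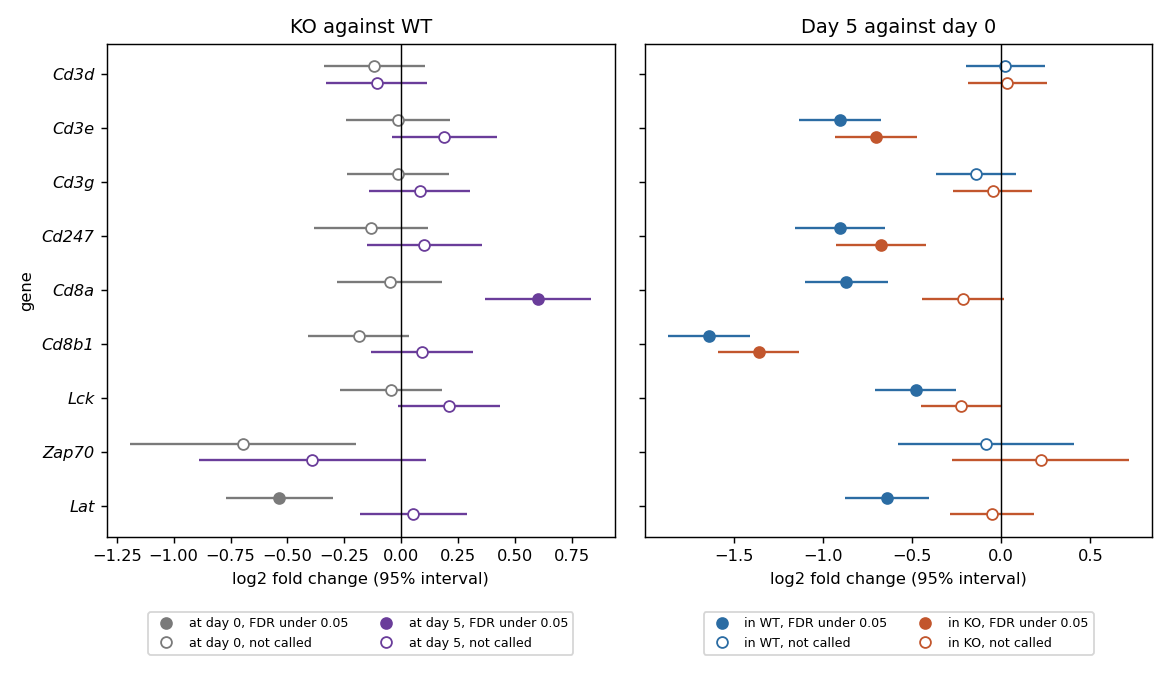
Log2 fold changes (x axis) of the 9 genes (y axis) for KO against WT at each day (left) and for day 5 against day 0 in each genotype (right), with 95% intervals. Filled points have an adjusted p under 0.05. On the left only *Lat* at day 0 (−0.54) and *Cd8a* at day 5 (0.60) are filled, and on the right 6 genes are filled in WT and 3 in KO cells.

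Between genotypes, 1 of the 9 genes was called at each day. At day 0 it was *Lat*, lower in the libraries labelled KO, against 1.80% of all tested genes called in either direction, 0.913% higher and 0.889% lower. The mean was 1661 ± 158 CPM in WT and 1145 ± 45.2 CPM in KO libraries (SD, n = 2 each), a 1.45-fold difference (log2 fold change −0.54, SE 0.11, 95% interval −0.77 to −0.30, adjusted p = 0.0269, edgeR quasi-likelihood test, Benjamini-Hochberg adjusted). The call was lost with the offset for GC content and length (−0.40, adjusted p = 0.0836), without any of the 4 day 0 libraries (adjusted p = 0.0996 and 0.271 without WT replicates 1 and 2, 0.0819 and 0.151 without KO replicates 1 and 2) and without KO replicate 1 of day 5 (adjusted p = 0.0531). It held in 11 of 17 alternatives, over which the adjusted p ran from 0.0014 to 0.271.

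*Zap70* had means at day 0 of 118 ± 4.98 CPM in WT and 73.4 ± 20.5 CPM in KO libraries, and was not called (log2 fold change −0.70, SE 0.23, 95% interval −1.19 to −0.20, adjusted p = 0.19). It was called only where no filter on low counts was used (adjusted p = 0.021). For the other 7 genes the log2 fold change at day 0 lay between −0.19 (*Cd8b1*, 95% interval −0.41 to 0.04) and −0.01 (*Cd3e* and *Cd3g*), and the sign of *Cd3e*, *Cd3g* and *Lck* (−0.05) was positive in some alternatives. The median over the 9 genes was −0.12, beside −0.0017 over all tested genes.

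At day 5 the called gene was *Cd8a*, higher in KO cells, against 1.63% of all tested genes called in either direction, 1.31% higher and 0.318% lower. The mean was 783 ± 69.8 CPM in WT and 1190.16 ± 36.3 CPM in KO libraries, a 1.52-fold difference (log2 fold change 0.60, SE 0.11, 95% interval 0.37 to 0.84, adjusted p = 0.0155, edgeR quasi-likelihood test, Benjamini-Hochberg adjusted). The call was lost with only the 4 libraries of the comparison (adjusted p = 0.0593) and without KO replicate 1 or 2 of day 5 (adjusted p = 0.129 and 0.126). It held in 14 of 17 alternatives, with log2 fold changes from 0.52 to 0.71.

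*Cd8b1*, the other coreceptor gene, was not called. It had means of 1239 ± 56.6 CPM in WT and 1321 ± 66.1 CPM in KO libraries at day 5 (log2 fold change 0.09, 95% interval −0.13 to 0.32, adjusted p = 0.753), and its interval lay below that of *Cd8a*. *Lck* (0.21, 95% interval −0.01 to 0.44, adjusted p = 0.39) and *Cd3e* (0.19, 95% interval −0.04 to 0.42, adjusted p = 0.461) were the next highest values and were not called. *Lat*, called at day 0, differed by 0.05 on the log2 scale at day 5 (95% interval −0.18 to 0.29, adjusted p = 0.885). *Cd3g* (0.08), *Cd247* (0.10), *Cd3d* (−0.11) and *Zap70* (−0.39, 95% interval −0.89 to 0.11) were not called.

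Whether the genotypes differed in the change over culture was tested by the genotype by day interaction, the log2 fold change of KO against WT at day 5 minus that at day 0. None of the 9 genes was called in edgeR, against 0.159% of all tested genes, with 0.0794% called in each direction, and 2 of the 9 had an unadjusted p under 0.05, as did 1562 of the 12597 tested genes. These were *Cd8a* (0.65, SE 0.15, 95% interval 0.33 to 0.98, adjusted p = 0.122) and *Lat* (0.59, SE 0.15, 95% interval 0.26 to 0.92, adjusted p = 0.163). Both were called by the DESeq2 Wald test (adjusted p = 0.013 and 0.0402), which called 144 of all genes, and *Cd8a* also in edgeR without WT replicate 1 of day 5 (adjusted p = 0.0436). The interaction rests on the genotype labels of day 0 as well as day 5. The median over the 9 genes was 0.26 beside 0.02 over all tested genes. The value of *Cd3d* was 0.01 and turned negative with library totals, with no filter and with the offset.

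The remaining genes of the pathway were read from a list of 42 genes, of which 38 passed the filter. *Cd4*, *Blk* and the paralogues *Syk* (of *Zap70*) and *Fcer1g* (of *Cd247*) did not. At day 0 edgeR called 0 of the 38 genes between genotypes, 5 had an unadjusted p under 0.05 (1742 of the 12597 tested genes did), and DESeq2 called 1 (*Trat1*), against 1.80% (227 of 12597) of all tested genes called by edgeR and 299 by DESeq2. At day 5 edgeR called 6 of the 38, of which 5 were higher in KO cells, and DESeq2 called the same 6. Of all tested genes edgeR called 1.63% (205 of 12597) at day 5, 1.31% higher and 0.318% lower, and DESeq2 called 350. The median log2 fold change of the list between genotypes was −0.0031 at day 0 and 0.09 at day 5, beside −0.0017 and 0 over all tested genes. In the interaction edgeR called 0 of the 38, 5 had an unadjusted p under 0.05 (1562 of the 12597 did), and DESeq2 called 2 (*Cd6* and *Trat1*), against 0.159% (20 of 12597) of all tested genes called by edgeR and 144 by DESeq2.

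The largest of these differences was that of *Lat2*, which encodes a LAT-like adaptor of B cells and myeloid cells that activated T cells can also express. It was at 1.25 and 0.678 CPM in WT and 2.402 and 0.734 CPM in KO libraries at day 0, at 10.1 and 13.0 CPM in WT libraries at day 5 and at 58.3 and 48.7 CPM in KO libraries at day 5. *Lat2* was thus higher in KO cells at day 5 (log2 fold change 2.22, SE 0.30, adjusted p = 0.00326). The day 0 libraries held only 3 to 28 reads of it and it passed the filter on low counts through the day 5 libraries, so its calls over culture are no support for a change. Among markers of myeloid cells, *Cd68* was at 30.7 and 37.1 CPM in WT and 68.4 and 46.4 CPM in KO libraries at day 5, *Itgam* was at 0.529 and 0.482 CPM in WT and 1.47 and 1.14 CPM in KO libraries, *Csf1r* was at 3.53 to 4.73 CPM, *Lyz2* at 0 to 0.241 CPM and *Fcgr1* at 0 in the same libraries, and the part of such cells in *Lat2* was not tested.

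*Trat1*, of an adaptor associated with the T-cell receptor complex, was at 89.4 and 81.4 CPM in WT and 143.5 and 146.3 CPM in KO libraries at day 0, and at 8.82 and 17.4 CPM in WT and 44.2 and 65.3 CPM in KO libraries at day 5. It fell over culture in both genotypes (−2.74, adjusted p = 3.86e-06 in WT and −1.40, adjusted p = 0.000276 in KO cells) and was higher in KO than in WT cells at day 5 (log2 fold change 2.099, SE 0.27, adjusted p = 0.00242). *Cd6*, of a scavenger-receptor family surface protein, was at 486 and 509 CPM in WT and 544 and 549 CPM in KO libraries at day 0, and at 106 and 103 CPM in WT and 168 and 190.5 CPM in KO libraries at day 5. It was also higher in KO cells at day 5 (0.77, SE 0.12, adjusted p = 0.00778) and fell in both genotypes (−2.25, adjusted p = 1.69e-08 in WT and −1.61, adjusted p = 2.42e-07 in KO cells). The day 5 call of *Lat2* and *Trat1* held in 17 of 17 alternatives and that of *Cd6* in 16 of 17, all but that without KO replicate 2 of day 5 (adjusted p = 0.151).

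The costimulatory receptor gene *Cd28* was at 332 and 347 CPM in WT and 525 and 477 CPM in KO libraries at day 5 (log2 fold change 0.56, SE 0.12, adjusted p = 0.0327). At day 0 it was at 304 and 342 CPM in WT and 388 and 400 CPM in KO libraries (0.29, SE 0.12, not called). Its interaction was 0.28 (adjusted p = 0.535, edgeR quasi-likelihood test), so the difference is not particular to day 5. *Txk*, of a Tec-family kinase, was the gene called lower, at 582 and 608 CPM in WT and 407 and 400.5 CPM in KO libraries at day 5 (−0.56, SE 0.11, adjusted p = 0.0205). The day 5 calls of *Cd28* and *Txk* held in 10 and 11 of 17 alternatives.

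**Figure D4:**
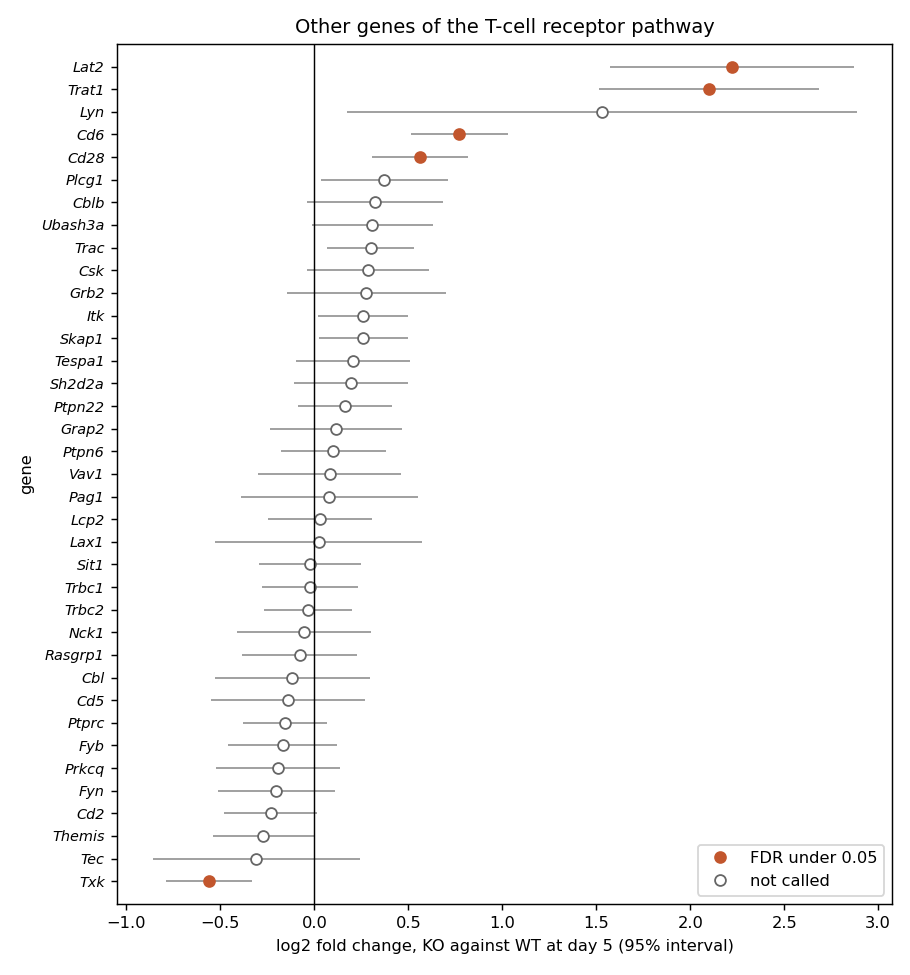
Log2 fold changes of KO against WT at day 5 (x axis, with 95% intervals) for 37 of the 38 tested genes of the pathway list (y axis, ordered by value). Filled points have an adjusted p under 0.05. *Lat2* (2.22) and *Trat1* (2.099) lie far to the right of the other called genes, and *Txk* (−0.56) is the called gene on the left.

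Over culture, 21 of the 38 listed genes were called in WT cells, 17 of them lower, and 23 in KO cells, 15 of them lower. Both counts include *Lat2* and that of KO cells also *Lyn*, whose calls are no support for a change. Of all tested genes, 48.3% were called in WT cells, 23.6% lower, and 50.2% in KO cells, 24.0% lower. The median log2 fold change was −0.22 in WT and −0.16 in KO cells. By role, 5 of the 8 tested receptor chains and surface partners, 3 of the 6 kinases, 4 of the 14 adaptors and effectors and 5 of the 8 brakes fell in WT cells. In KO cells these counts were 5, 3, 3 and 4. Besides *Trat1* and *Cd6*, the largest falls were those of *Pag1*, of the adaptor that recruits the LCK inhibitor CSK (−1.49, adjusted p = 7.09e-05 in WT and −1.47, adjusted p = 5.56e-05 in KO cells). The gene of the phosphatase PTPN22, which acts on LCK and ZAP-70, rose (0.79, adjusted p = 0.000122 in WT and 0.93, adjusted p = 2.83e-05 in KO cells, *Ptpn22*), as did *Themis*, of a T-lineage adaptor (0.62, adjusted p = 0.00134 in WT and 0.34, adjusted p = 0.0386 in KO cells). *Lyn*, a Src-family paralogue of *Lck* that is among the 23 genes called in KO cells, had 1 to 11 reads per KO library at day 0 and 22 to 32 at day 5. It passed the filter on low counts only through these day 5 libraries, so its call is no support for a change. The genes *Trbc1* and *Trbc2*, both in the list, are near-identical copies whose reads may be split or dropped.

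Correlations of log2 CPM over the 8 libraries are given as a description, since the libraries share 2 days and 2 genotypes. *Cd247* and *Cd8b1* had a Pearson r of 0.990 and *Cd3e* and *Cd8b1* of 0.981, whereas that of *Cd3d* with *Cd3e*, its neighbour, was −0.298. The tested genes with the most similar pattern were *Cd96* for *Cd3e* (r = 0.999), *Tprgl* for *Cd8b1* (r = 0.998), *Kdm1b* for *Cd247* (r = 0.996), *Ttc5* for *Cd8a* (r = 0.990) and *Gm28942* for *Lck* (r = 0.990). For the other members the best values were lower, with *Serpine3* for *Lat* (r = 0.977), *Dohh* for *Zap70* (r = 0.962), *Def8* for *Cd3g* (r = 0.958) and *Rps27a* for *Cd3d* (r = 0.936). Each was the highest among the other tested genes.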

How the data were processed

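Per the labels, sorted splenic CD8+ T cells were lysed in Trizol, total RNA was purified with Direct-zol columns, and NEBNext Ultra RNA libraries were sequenced on a HiSeq2500. The submitters' processing notes name HISAT2 2.1.0, HTSeq 0.11.1 and the mm10 build; the annotation and the strand setting were not given in the sources used here. The authors deposited 1 table of raw counts by gene symbol per library, not normalized and not pooled. Reads assigned to genes made up 21.2% to 24.5% of the records of a library, and the summary lines that name no gene (the rest) were left out of library sizes and tests.

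From these, CPM on the TMM-scaled library size were computed, and all 8 libraries entered 1 edgeR 4.0.16 quasi-likelihood fit (R 4.3.3) with a mean per group and the default filter (minimum count 10), and 12597 genes were tested. The common biological coefficient of variation came to 14.9%. P-values were two-sided and adjusted by the Benjamini-Hochberg method over all 12597 genes in each of 5 comparisons, and an adjusted p under 0.05 was called. The script was tested on simulated data. Log2 CPM for correlations used a prior count of 2. Gene models came from GENCODE M21 and promoters from RefSeq (GRCm38.p6).

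The members and lists were chosen with earlier results of these data known. Named genes were the 9 members and *Satb1*, listed pathway genes called between genotypes or in the interaction, the 3 largest called changes of the list in each direction over culture, and the 3 genes most correlated with each member, of which the highest is printed. Some listed genes enter the counts and sums but are not reported here. Alternatives were other scalings, filters, sample sets, tools, a replicate block, a GC and length offset, and leaving out each library.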

Additional observations from a re-analysis of the deposited data

Results flagged for a closer look

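The effect of genotype on *Satb1*, the targeted gene, differed between the days by the interaction test. The difference of its log2 fold changes (day 5 minus day 0) was −1.34 (SE 0.21, adjusted p = 0.0269, edgeR quasi-likelihood test, Benjamini-Hochberg adjusted), from 0.51 at day 0 to −0.84 at day 5. It held in 9 of 16 alternatives, with adjusted p from 3.77e-05 to 0.23, and the call was lost without each of 6 libraries (WT replicates 1 and 2 and KO replicate 1 of day 0, WT replicate 2 and KO replicates 1 and 2 of day 5) and under the offset for GC content with length (−1.15, adjusted p = 0.0777).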

How the results depend on the processing

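With 2 libraries per group, calls near the threshold depended on single libraries, and 17 alternatives were run per comparison (16 for the interaction); the cause of the changes below was not tested. The falls of *Cd3e*, *Cd247* and *Cd8b1* over culture in both genotypes, and of *Cd8a*, *Lck* and *Lat* in WT, were called in all 17. Scaling by library totals moved the median change of all genes (log2) by −0.14 (WT culture) and −0.18 (KO culture) and the calls higher and lower from 3112 and 2969 to 2668 and 3560 in WT and from 3296 and 3029 to 2755 and 3936 in KO cells.

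Of the 9 genes, the number called at day 0 was 2 with no filter and 0 with the GC and length offset, at day 5 0 with only the 4 libraries compared, over KO culture 6 with library totals and 5 with the offset, and in the interaction 2 with DESeq2. Without each library in turn it ran from 0 to 1 at day 0, 0 to 1 at day 5, 3 to 5 over KO culture and 0 to 1 in the interaction. Over all genes, 434 were called at day 0, 418 at day 5 and 154 in the interaction with no filter, 350 at day 5 and 144 in the interaction with DESeq2, and 12 in the interaction with the offset, against 227, 205 and 20. Without each library in turn the counts ran from 38 to 276 at day 0, 32 to 249 at day 5 and 0 to 41 in the interaction, lowest without WT replicate 1 of day 0, KO replicate 2 of day 5 and WT replicate 1 of day 0.

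Signs turned only in values that were not called. With no filter these were *Cd3e* (0.024) and *Cd3g* (0.022) at day 0 and *Cd3d* over KO culture (−0.0024) and in the interaction (−0.0088). With library totals *Cd3d* was −0.11 over WT culture, −0.15 over KO culture and −0.039 in the interaction. With the offset *Lck* at day 0 was 0.054, *Lat* at day 5 −0.11, *Cd3d* −0.19 over WT culture, −0.22 over KO culture and −0.030 in the interaction, *Zap70* 0.16 over WT culture and −0.037 in the interaction, and *Cd3g* 0.039 over KO culture. Leaving out each library gave at day 0 −0.059 to 0.056 for *Cd3e*, −0.098 to 0.072 for *Cd3g* and −0.074 to 0.0059 for *Lck*, and at day 5 −0.71 to 0.022 for *Zap70*. Over WT culture it gave −0.043 to 0.11 for *Cd3d* and −0.46 to 0.27 for *Zap70*, over KO culture −0.039 to 0.52 for *Zap70* and −0.094 to 0.0015 for *Lat*, and in the interaction −0.070 to 0.083 for *Cd3d* and −0.016 to 0.69 for *Zap70*.

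With a block for the replicate number, 1, 1, 6, 3 and 0 of the 9 genes were called in the order day 0, day 5, WT culture, KO culture and interaction, as without it, and 216, 215, 5999, 6291 and 29 of all genes. The labels do not say that the numbers pair libraries, and deviations of same-numbered libraries correlated by 0.0044 and −0.02 between genotypes at day 0 and day 5 and by 0.12 and 0.23 between days in WT and KO, so the pairing was not used. Settings for the named pathway genes were added after the data were seen.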
